A study of Mus musculus with 8 samples.

Results

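The RNA of 9 enzymes or enzyme subunits of the mitochondrial tricarboxylic acid cycle was followed in cultured mouse cells that had lost their glucose supply. The genes were Cs, Idh2, Idh3a, Idh3b, Ogdh, Sucla2, Suclg1, Fh1 and Mdh2, 9 of the 23366 gene symbols in the count table. They were chosen by symbol, and each was represented by its transcript row with the highest total over the 8 labelled libraries. All 9 passed the filter on low counts. The cells were fibroblasts cultured from mouse embryos (MEFs), on a C57BL/6 background at passages 3 to 5. The 4 groups of 2 libraries were cells labelled as Kdm3a knockouts (KO) after 12 h of glucose starvation, KO-labelled cells fed (0 h), wild-type (WT) cells after 12 h of starvation and WT cells fed (0 h). Fed cells were in DMEM with 10% serum, whereas starved cells were rinsed and moved to DMEM without glucose and with 10% dialyzed serum. No group was kept for 12 h in fresh medium with glucose, so loss of glucose, the dialyzed serum and the elapsed time cannot be told apart, and starvation here means all of these. The labels do not say how the KO allele was made, nor whether replicates came from separate embryos or cultures, and p-values reflect no more than how far these libraries differ, which may be technical.

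The tricarboxylic acid cycle burns the acetyl groups made from sugars, fats and some amino acids, and hands the electrons to the respiratory chain as NADH and reduced flavin. Citrate synthase joins the acetyl group to oxaloacetate, isocitrate and 2-oxoglutarate dehydrogenases release carbon dioxide, and succinyl-CoA ligase, succinate dehydrogenase, fumarase and malate dehydrogenase return the carbon skeleton to oxaloacetate. The cycle also supplies 2-oxoglutarate, which histone demethylases of the Kdm3a family consume, and succinate and fumarate, which inhibit such enzymes.

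For 8 of the 9 genes (all but Idh3a) RefSeq's promoter table for GRCm38.p6 held an upstream sequence, 13 start sites in all because Ogdh has several. The 250 bases before the start are shown for 4 of them: Idh3b and Mdh2, whose RNA rose with starvation under both labels, and Cs and Fh1, which differed most between the labels in their response. Capitals mark matches, on either strand, to any of the letter strings described after them. They lie at chr2:130284452-130284701 (minus strand), chr5:135778399-135778648 (plus strand), chr10:128337477-128337726 (plus strand) and chr1:175625636-175625885 (minus strand), each written 5′ to 3′ in the direction of transcription.
Idh3b: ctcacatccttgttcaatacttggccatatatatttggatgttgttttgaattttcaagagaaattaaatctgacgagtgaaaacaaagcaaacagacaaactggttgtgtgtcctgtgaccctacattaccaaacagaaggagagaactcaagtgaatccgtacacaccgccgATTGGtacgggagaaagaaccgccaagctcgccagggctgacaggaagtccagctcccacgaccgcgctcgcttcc
Mdh2: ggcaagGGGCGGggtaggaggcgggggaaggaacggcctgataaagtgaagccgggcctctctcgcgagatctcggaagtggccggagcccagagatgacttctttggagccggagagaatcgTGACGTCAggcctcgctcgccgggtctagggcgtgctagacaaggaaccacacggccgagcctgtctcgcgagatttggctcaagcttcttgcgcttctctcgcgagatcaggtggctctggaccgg
Cs: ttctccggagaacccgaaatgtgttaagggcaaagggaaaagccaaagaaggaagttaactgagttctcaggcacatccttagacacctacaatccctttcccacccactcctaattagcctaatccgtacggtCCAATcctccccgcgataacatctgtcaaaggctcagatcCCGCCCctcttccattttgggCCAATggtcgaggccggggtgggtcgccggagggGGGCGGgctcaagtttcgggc
Fh1: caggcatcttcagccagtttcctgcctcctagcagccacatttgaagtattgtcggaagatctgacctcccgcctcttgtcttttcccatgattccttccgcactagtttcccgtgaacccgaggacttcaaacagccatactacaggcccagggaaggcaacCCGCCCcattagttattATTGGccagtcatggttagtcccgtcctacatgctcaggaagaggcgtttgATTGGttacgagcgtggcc
The strings searched were CCAAT (the CCAAT box), GGGCGG (the GC box), TGACGTCA (the cyclic AMP response element), CACGTG (the E-box bound by MYC, MondoA and TFEB), TGATGNAA (a form of the element bound by ATF4 with its partners), AAGGTCA (the core site of estrogen-related receptors) and the palindromic site of nuclear respiratory factor NRF1. No string is contained in another. A CCAAT box stood before 5 of the 8 genes (Cs, Fh1, Idh2, Idh3b and Ogdh). By start site this was 8 of 13, against 33.8% of all 32851 start sites in the table. A GC box stood before 6 of them, and only Idh3b and Suclg1 had none. By start site it was 7 of 13, against 32.7% of all start sites. The cyclic AMP response element was found before Mdh2, 127 to 120 bases upstream, and before Ogdh. By start site this was 4 of 13, against 1.55% of all, but the matches before Ogdh were all the same stretch of bases. By gene it was 2 of 8. The E-box was found before Ogdh alone, at 3 of the 13 start sites, against 6.02% of all. Windows of several Ogdh start sites overlap, so the same match can count at more than 1 start site. The 3 remaining strings were in none of the 8, and their shares of all start sites were 3.45% for TGATGNAA, 4.08% for AAGGTCA and 0.782% for the NRF1 site. These are letter matches in a short window and say nothing of binding.

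With 1 row per gene the libraries held 38407520 to 53602289 counts, of which the 9 genes took 0.127 to 0.148%. Each of the 9 had at least 1582 counts in every library. Kdm3a itself, an H3K9 demethylase gene, was read at 55.2 and 55.4 CPM (counts scaled to an equal library size) in fed KO-labelled cells, against 56.1 and 56.4 CPM in fed WT cells. In starved cells it stood at 65.4 and 66.7 CPM under the KO label, against 176 and 185 CPM in WT (-1.45 ± 0.041). These counts cover all exons together, so a deleted exon would not show, the label was not borne out in fed cells, and the libraries are called KO-labelled here. Xist, which coats the silenced X chromosome, was at 869 to 1370 CPM in KO-labelled libraries and at 0.939 to 1.54 CPM in WT libraries, and 4 Y-linked genes had 0 to 2 counts in each KO-labelled library and 296 to 1251 in each WT library. Genotype and sex of the cells therefore cannot be told apart. Of 12 fibroblast markers, 11 were read above 1 CPM (Fap was not), and their summed level was 13394 to 13525 CPM in starved and 11962 to 12004 CPM in fed KO-labelled libraries, against 21270 to 22310 CPM in starved and 21585 to 22171 CPM in fed WT libraries. The sums hide members that moved apart: in WT, Col1a1 was at 240.4 and 254.5 CPM in starved and 4751 and 4572 CPM in fed cells, while Vim was at 11395 and 11319 CPM in starved and 4399 and 4394 CPM in fed cells. Thy1 was at 4.72 to 6.62 CPM under the KO label and 99.3 to 166 CPM in WT, and Postn at 6.44 to 11.7 CPM under the KO label and 426 to 811 CPM in WT. Pdgfra and Col3a1 went the other way. In starved cells Pdgfra was at 23.7 and 24.8 CPM under the KO label and 5.5 and 5.97 CPM in WT. In fed cells it was at 97.1 and 97.8 CPM against 29.4 and 31.9 CPM. Col3a1 was at 148 and 143 against 27 and 29.8 CPM when starved, and 914 and 905 against 626 and 615 CPM when fed. Markers of blood cells, endothelium, epithelium and muscle summed to at most 55.5 CPM in any library. The highest endothelial sums, 53.1 to 55.5 CPM in starved WT cells, were nearly all Kdr. Blood and macrophage markers summed to 53.2 to 54.2 CPM in starved and 21.5 to 22.1 CPM in fed KO-labelled cells, against 7 to 10.2 CPM in starved and 19 to 19.4 CPM in fed WT cells, and Cd68 was at 40.9 and 40.7 CPM in starved KO-labelled libraries and at most 3.94 CPM in the other 6. Ptprc, Emr1, Tie1, Myod1 and Myog had no count. Neural markers (mainly Nes and Map2, which fibroblasts also express) summed to 59.1 to 60.1 CPM under the KO label, against 99.7 to 249 CPM in WT. Adipocyte markers, nearly all Fabp4, summed to 30.6 to 30.9 CPM in starved and 59.8 to 60.3 CPM in fed KO-labelled cells, against 6.12 to 8.87 CPM in starved and 10.9 to 11 CPM in fed WT cells, and Plin1 and Cidec had no count. In bulk RNA, fewer cells of a type and less RNA per cell cannot be told apart, and the part of these differences in the results below was not tested.

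Per kilobase of transcript, malate dehydrogenase and citrate synthase RNA stood above the other 7 genes in every group. Mdh2 had the highest level and Cs the next, with 247 ± 2.18 and 112 ± 1.39 CPM per kb in starved KO-labelled cells, 169 ± 0.753 and 117 ± 1.78 in fed KO-labelled cells, 286 ± 0.876 and 160 ± 1.99 in starved WT cells and 165 ± 1.69 and 109 ± 0.0899 in fed WT cells (SD, n = 2). Fh1, which encodes fumarase, was the lowest in each group, at 19.1 ± 0.561, 27.3 ± 0.777, 19.3 ± 1.2 and 16.4 ± 0.116 CPM per kb in the same order of groups. All 9 lay above the median of 14070 genes with a known transcript length, which was 6.4 to 7.41 CPM per kb. The order in the middle changed with starvation. Rank 3 was held by Idh3b in starved cells and by Idh2 in fed cells of both labels. Ogdh had rank 7 in starved and 5 in fed KO-labelled cells, and rank 8 in starved and 7 in fed WT cells. Neighbours in these orders had non-overlapping libraries except Idh3a and Sucla2 in fed KO-labelled cells, at 28.5 ± 0.738 and 28.4 ± 0.625 CPM per kb.

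**Figure D1:**
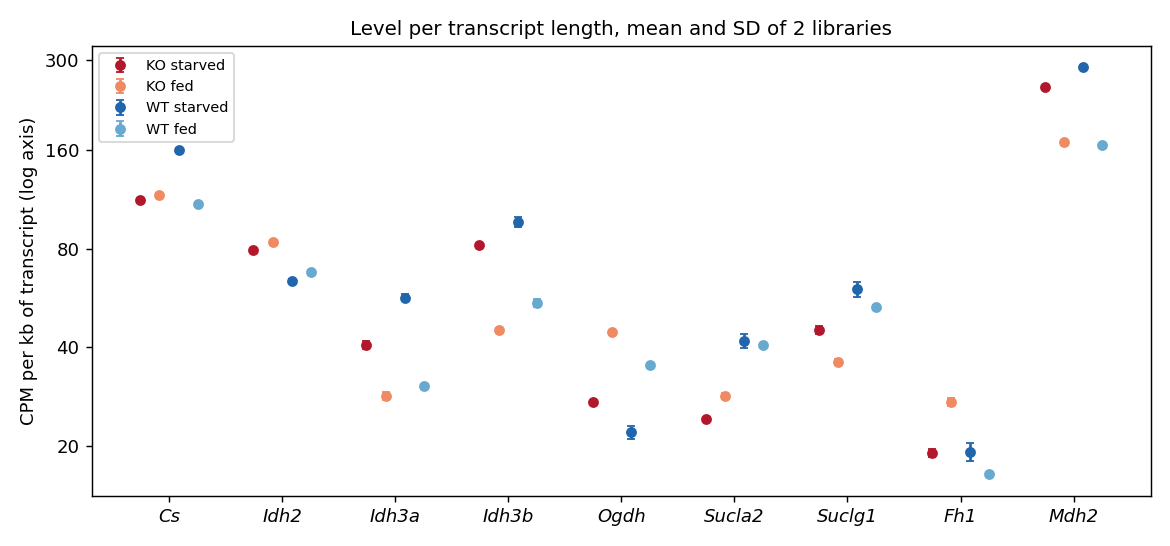
Level of each gene per kilobase of transcript in CPM per kb (logarithmic vertical axis) for starved and fed KO-labelled and starved and fed WT cells; points are means of 2 libraries and bars 1 SD. Mdh2 lies highest (165 to 286 CPM per kb) and Fh1 lowest (16.4 to 27.3 CPM per kb) in every group.

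Levels below are CPM after TMM scaling, which assumes that most genes keep their level. Most genes were called changed in every comparison, so that assumption is not borne out here. Fold changes are log2 ± SE from edgeR's quasi-likelihood test with Benjamini-Hochberg adjustment over 14418 genes, and a gene was called at an adjusted p under 0.05. Most genes were called, so a call by itself sets no gene apart: 79.7% for starvation in KO-labelled cells, 81.6% for starvation in WT cells, 79.6% for KO-labelled against WT when starved, 74.4% when fed and 64.5% for the difference between the starvation responses. The 2 groups' libraries did not overlap for 90.0%, 89.0%, 88.1% and 87.3% of genes in the first 4 of these. They did not overlap for any of the 9 cycle genes except Sucla2 in WT starvation and Fh1 in KO-labelled against WT when starved. The scaling matters: with plain library totals the median of all genes shifted by -0.26 for starvation in KO-labelled cells, -0.46 for starvation in WT cells, 0.12 for KO-labelled against WT when fed, 0.32 when starved and 0.2 for the difference between the starvation responses. Such a shift is nearly the same for every gene, so values below move by about these amounts with library totals. For the 9 genes it is said beside the gene where this ended or made a call or turned a direction.

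Citrate synthase, the entry step, rose with starvation in WT cells, while its change in KO-labelled cells was small and depended on the settings. Cs was read at 332 and 326 CPM in starved and 338 and 345 CPM in fed KO-labelled cells, and at 463 and 471 CPM in starved and 320 and 320 CPM in fed WT cells. The 2 starved WT libraries were the highest of the 8, and the other 6 lay close together. It rose by 0.55 ± 0.028 in WT (adjusted p = 1.05e-13; 0.09 with library totals, still called), and in KO-labelled cells the difference was -0.05 ± 0.028 (95% interval -0.11 to 0.01, adjusted p = 0.09). The KO-labelled value became a called fall with library totals (-0.31), the 5 CPM filter (-0.14), DESeq2 (-0.09) and without either starved WT library (-0.11 each). The 2 responses differed by -0.60 ± 0.04 (adjusted p = 3.49e-11), and 49.3% of all tested genes had a difference at least as large in either direction. Starved KO-labelled cells thus held less Cs RNA than starved WT cells (-0.50 ± 0.028), while fed KO-labelled cells held slightly more than fed WT cells (0.09 ± 0.028, adjusted p = 0.00522; 0.21 with library totals, 0.16 without either starved WT library, and not called without the second fed KO-labelled library). A near-copy of this gene, Csl, had 0 to 7 counts per library.

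Isocitrate is oxidised in mitochondria by an NAD-dependent enzyme, built from Idh3a (the catalytic subunit), Idh3b and Idh3g, and by the NADP-dependent enzyme Idh2. The 2 NAD-dependent subunits among the 9 genes rose with starvation under both labels, and the fitted changes of Idh2 were under 0.1 log2 units (-0.33 in KO-labelled and -0.55 in WT cells with library totals, both called). Idh3a stood at 95.6 and 99.4 CPM in starved and 67.1 and 69.7 CPM in fed KO-labelled cells, and at 138 and 134 CPM in starved and 72.9 and 73.3 CPM in fed WT cells. Every starved library lay above every fed library. The rise was 0.51 ± 0.04 in KO-labelled and 0.90 ± 0.041 in WT cells, and the difference between them, -0.39 ± 0.057, passed (adjusted p = 5.11e-06). Starved KO-labelled cells had less Idh3a than starved WT cells (-0.48 ± 0.04). In fed cells the difference of -0.10 ± 0.041 (adjusted p = 0.042) was called in the reported fit but in only 2 of 15 alternatives, and it was 0.020 with library totals.

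Idh3b was at 131 and 133 CPM in starved and 71.9 and 73.7 CPM in fed KO-labelled cells, and at 160 and 152 CPM in starved and 90.3 and 86.8 CPM in fed WT cells. As with Idh3a, starved and fed libraries did not overlap, and the rise was 0.86 ± 0.039 in KO-labelled and 0.82 ± 0.04 in WT cells. The difference of the responses was 0.05 ± 0.055 (95% interval -0.07 to 0.16, adjusted p = 0.495), but 0.25 and called with library totals. KO-labelled cells had less Idh3b than WT cells when starved (-0.24 ± 0.038, turning to 0.079 with library totals) and when fed (-0.28 ± 0.04). Exons of Idh3b overlap those of Nop56, a nucleolar gene on the opposite strand, and the sources used here do not say whether counting used strand. Nop56 rose too, to 248 CPM in starved against 123 CPM in fed KO-labelled cells and to 485 CPM in starved against 163 CPM in fed WT cells, and its responses differed by -0.56 ± 0.044. Its part in the Idh3b counts was not tested.

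Idh2 was at 137 and 139 CPM in starved and 146 and 146 CPM in fed KO-labelled cells, and at 112 and 110 CPM in starved and 117 and 120 CPM in fed WT cells. The starvation difference was -0.07 ± 0.034 in KO-labelled cells (95% interval -0.14 to -0.001 before adjustment, adjusted p = 0.0586), called with library totals, the 5 CPM filter, only the groups compared, DESeq2 and without either starved WT library. In WT it was a called fall of -0.09 ± 0.036 (adjusted p = 0.0245) that ended with DESeq2 (-0.03), with summed isoform rows (-0.08), with only the groups compared in the fit (-0.02) and without the second fed (-0.07), the first starved (-0.03) or the second starved WT library (-0.0008). KO-labelled cells held more Idh2 than WT cells, by 0.32 ± 0.036 when starved (0.63 with library totals) and 0.30 ± 0.035 when fed, and all 4 KO-labelled libraries lay above all 4 WT libraries. The responses differed by 0.02 ± 0.05 (95% interval -0.08 to 0.12, adjusted p = 0.756). This difference was 0.22 and called with library totals, and it turned to -0.13 without the second starved WT library.

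Ogdh, the 2-oxoglutarate-binding subunit of the 2-oxoglutarate dehydrogenase complex, fell most of the 9 genes with starvation under both labels. It was at 113 and 112 CPM in starved and 183 and 183 CPM in fed KO-labelled cells, and at 94 and 88.2 CPM in starved and 146 and 146 CPM in fed WT cells. Every starved library lay below every fed library. The fall was -0.71 ± 0.036 in KO-labelled cells and -0.68 ± 0.038 in WT cells. Changes at least as large in either direction were seen for 49.8% and 60.7% of all tested genes. The difference between the 2 falls was -0.03 ± 0.052 (95% interval -0.13 to 0.08, adjusted p = 0.698), but with library totals it was called at 0.18 and without the second starved WT library at -0.20. KO-labelled cells held more Ogdh than WT cells when starved (0.30 ± 0.038, or 0.62 with library totals and 0.19 without the second starved WT library) and when fed (0.33 ± 0.036).

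Succinyl-CoA ligase pairs an alpha subunit, Suclg1, with either of 2 beta subunits, Sucla2 for ATP or Suclg2 for GTP. Both Suclg1 and Sucla2 were lower in KO-labelled than in WT cells. Sucla2 was at 53.9 and 53.8 CPM in starved and 62.4 and 64.4 CPM in fed KO-labelled cells, and at 96.4 and 90 CPM in starved and 90.4 and 91 CPM in fed WT cells. All 4 KO-labelled libraries lay below all 4 WT libraries, a difference of -0.79 ± 0.045 when starved and -0.52 ± 0.043 when fed. Sucla2 fell with starvation in KO-labelled cells (-0.23 ± 0.044, adjusted p = 5.81e-05). In WT the starved and fed libraries overlapped (0.04 ± 0.043, 95% interval -0.05 to 0.13, adjusted p = 0.407). The WT value was called at -0.42 with library totals, at 0.11 with only the groups compared in the fit and at 0.17 without the second starved library. The responses differed by -0.27 ± 0.062 (adjusted p = 0.000591), by -0.07 with library totals, which was not called, and by -0.45 without the second starved WT library.

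Suclg1 was at 69.9 and 67.2 CPM in starved and 55.6 and 54.1 CPM in fed KO-labelled cells, and at 88.1 and 94.5 CPM in starved and 80.4 and 81.3 CPM in fed WT cells. The 4 groups did not overlap, with fed KO-labelled cells lowest and starved WT cells highest. The rise with starvation was 0.32 ± 0.045 in KO-labelled cells (0.07 and not called with library totals) and 0.18 ± 0.045 in WT cells (a called fall of -0.28 with library totals, and a rise of 0.30 without the first starved WT library). The difference of the responses was 0.15 ± 0.064 (adjusted p = 0.0512), called at 0.35 with library totals and at 0.17 without the second starved KO-labelled library. KO-labelled cells held less than WT cells when starved (-0.41 ± 0.045, or -0.10 with library totals at an adjusted p of 0.0502) and when fed (-0.56 ± 0.045).

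Fumarase, which turns fumarate into malate, showed the largest difference between the labels in its response among the 9 genes. Fh1 was at 49.3 and 51.4 CPM in starved and 73.3 and 70.4 CPM in fed KO-labelled cells, and at 48.6 and 53.1 CPM in starved and 43.1 and 43.5 CPM in fed WT cells. The fed KO-labelled libraries stood apart from the other 6. Fh1 fell by 0.51 ± 0.049 on the log2 scale in KO-labelled cells and rose by 0.23 ± 0.053 in WT cells (a called fall of -0.23 with library totals, and a rise of 0.37 without the first starved WT library). The responses differed by -0.74 ± 0.072 (adjusted p = 1.19e-08), and by -0.54 with library totals. Of all tested genes, 41.2% had a difference of responses at least as large in either direction. Fed KO-labelled cells held 1.66-fold the Fh1 of fed WT cells (0.73 ± 0.05), whereas starved cells overlapped (-0.01 ± 0.052, 95% interval -0.12 to 0.1, adjusted p = 0.837, but 0.30 and called with library totals and -0.14 and called without the first starved WT library).

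Mdh2, malate dehydrogenase, which closes the cycle, rose with starvation under both labels. It was at 358 and 363 CPM in starved and 247 and 246 CPM in fed KO-labelled cells, and at 416 and 417 CPM in starved and 242 and 239 CPM in fed WT cells. Fed libraries of both labels lay close together and below all starved libraries. The rise was 0.55 ± 0.028 in KO-labelled and 0.79 ± 0.029 in WT cells, and their difference of -0.24 ± 0.04 (adjusted p = 1.77e-05) was -0.044 and not called with library totals, and -0.37 without either starved WT library. Starved KO-labelled cells held less than starved WT cells (-0.21 ± 0.028), a direction that turned to 0.11 with library totals. In fed cells the difference was 0.04 ± 0.029 (95% interval -0.02 to 0.1, adjusted p = 0.261), and it was called higher in 6 of 15 alternatives, at 0.07 to 0.15.

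**Figure D2:**
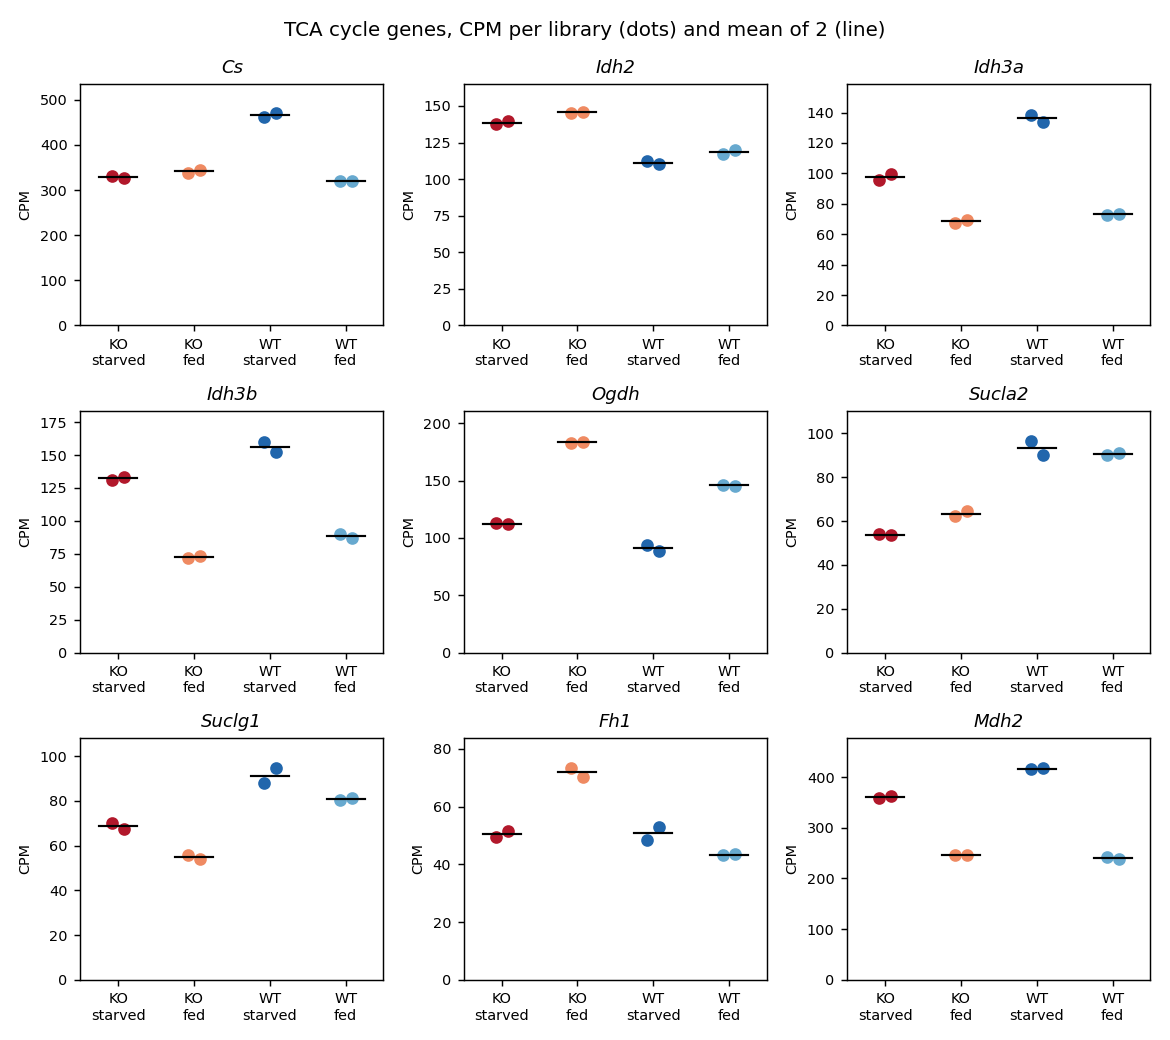
CPM of the 9 genes in each library, 1 panel per gene with axes from 0; dots are the 2 libraries of each group and lines their mean. Ogdh is lower in the starved groups and Idh3a, Idh3b and Mdh2 are higher, while Cs stands apart in starved WT cells (463 and 471 CPM) and Fh1 in fed KO-labelled cells (73.3 and 70.4 CPM).

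Counted over the 9 genes, starvation in KO-labelled cells raised 4 (Idh3a, Idh3b, Suclg1 and Mdh2) and lowered 3 (Ogdh, Sucla2 and Fh1), against a background of 39.4% of all tested genes called higher and 40.3% called lower. Their median log2 fold change was -0.05, and that of all tested genes was -0.02. In WT cells 6 rose (Cs, Idh3a, Idh3b, Suclg1, Fh1 and Mdh2) and 2 fell (Idh2 and Ogdh), where the background was 36.7% called higher and 44.8% called lower. The median was 0.23 for the 9 genes and -0.17 for all genes, and both medians were lower with library totals, at -0.23 and -0.63. Called in the same direction in the reported fit and under each of 15 alternatives were the rises of Idh3a, Idh3b and Mdh2 and the fall of Ogdh under both labels, the rise of Cs in WT and the falls of Sucla2 and Fh1 in KO-labelled cells.

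In fed cells the KO label went with more Cs, Idh2, Ogdh and Fh1 and with less Idh3a, Idh3b, Sucla2 and Suclg1, 4 genes each way, where 34.5% of all tested genes were called higher and 39.8% lower. In starved cells 2 of the 9 were higher (Idh2 and Ogdh) and 6 lower (all but these and Fh1), where 41.9% of tested genes were called higher and 37.7% lower. With library totals the starved count was 4 higher and 3 lower, where 67.4% of the calls among all genes were higher. The fed count was then 5 higher and 3 lower, where 55.1% of the calls were higher. With TMM scaling the median of the 9 genes was -0.24 in starved and 0.04 in fed cells, and that of all genes was 0.07 and -0.06. Idh2 and Ogdh were higher and Sucla2 lower under the KO label in both states and under all 15 alternatives. The difference between the 2 starvation responses was called lower for 5 genes (Cs, Idh3a, Sucla2, Fh1 and Mdh2) and higher for none at an adjusted p under 0.05, where 30.4% of tested genes were called lower and 34.1% higher. Suclg1 was higher at an unadjusted p of 0.0331, and DESeq2 also called none higher. Cs, Idh3a and Fh1 kept that call under all 14 alternatives. With library totals, however, the count was 3 lower and 4 higher, where 67% of the calls among all genes were higher. The median difference was -0.24 for the 9 genes and 0.10 for all genes.

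**Figure D3:**
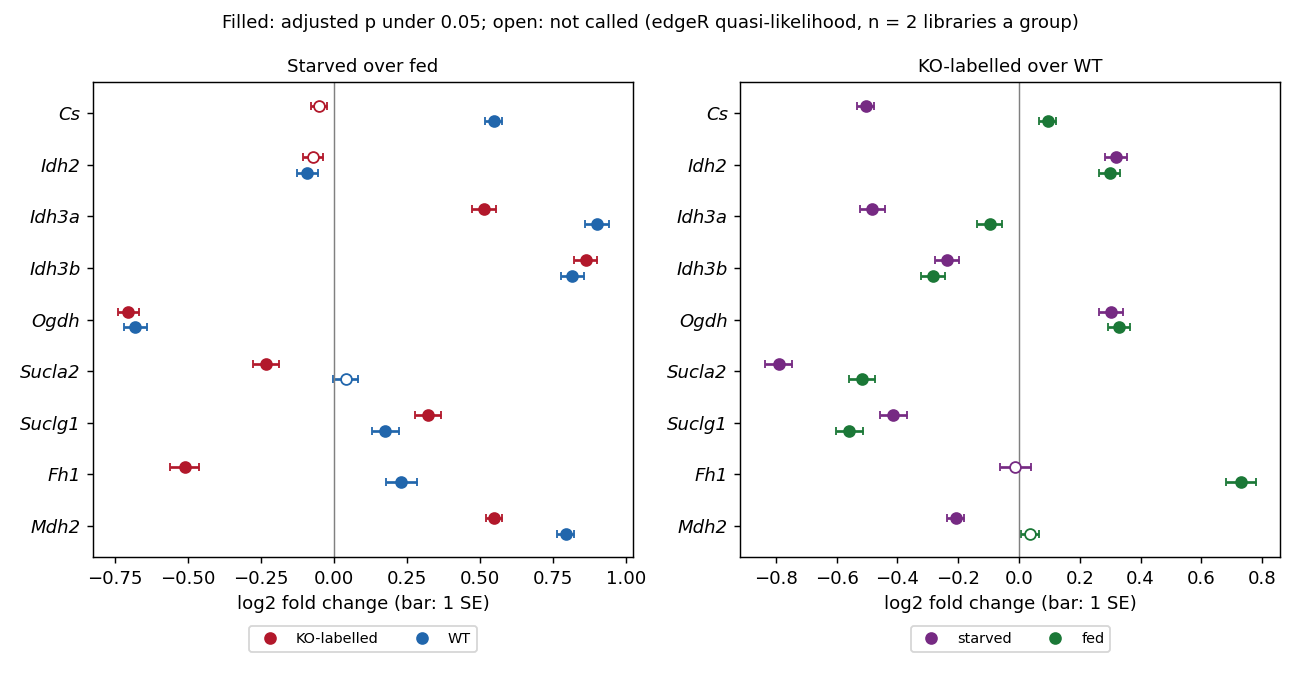
Log2 fold changes of the 9 genes (horizontal axis, bars 1 SE), starved over fed on the left for KO-labelled and WT cells and KO-labelled over WT on the right for starved and fed cells; filled points passed an adjusted p of 0.05 and open points did not. Cs and Fh1 show the widest gaps between the labels on the left, with differences of -0.60 and -0.74.

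**Figure D4:**
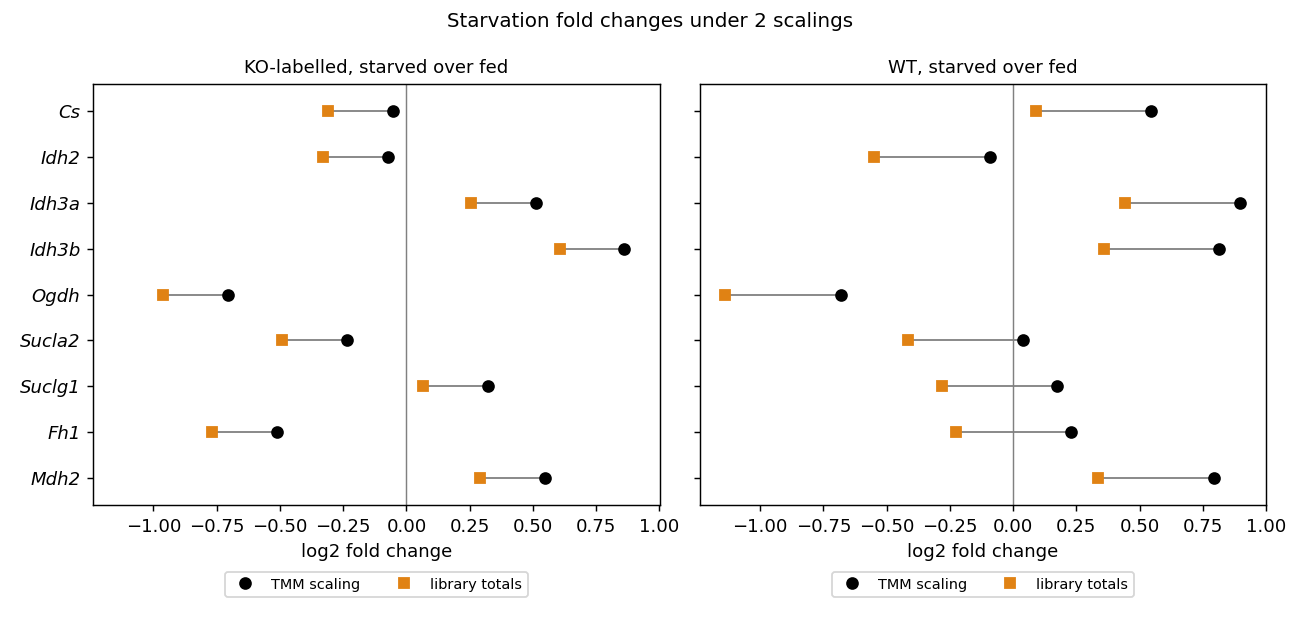
Starved over fed log2 fold changes of the 9 genes with TMM scaling (circles) and with library totals (squares), for KO-labelled cells on the left and WT cells on the right. Library totals move the values by a nearly constant amount to the left, so Sucla2, Suclg1 and Fh1 change direction in WT cells while Idh3a, Idh3b and Mdh2 stay above 0 and Ogdh below 0 in both panels.

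Ratios of counts per length within a library do not depend on the scaling between libraries, and they show that subunits of one complex moved unequally. The 2-oxoglutarate dehydrogenase complex joins Ogdh with Dlst, its transferase core, and Dld, the dihydrolipoamide dehydrogenase it shares with pyruvate dehydrogenase. Ogdh over Dlst was 0.304 and 0.306 in starved and 0.704 and 0.717 in fed KO-labelled cells, and 0.274 and 0.25 in starved and 0.684 and 0.709 in fed WT cells. Ogdh over Dld was 0.534 and 0.532 in starved and 1.33 and 1.42 in fed KO-labelled cells, and 0.324 and 0.309 in starved and 1.18 and 1.22 in fed WT cells. Both ratios were lower in every starved library than in any fed library, and Dlst and Dld rose while Ogdh fell, by 0.51 ± 0.033 and 0.66 ± 0.039 in KO-labelled cells and by 0.73 ± 0.034 and 1.24 ± 0.041 in WT cells.

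For the succinyl-CoA ligase beta subunits, Sucla2 over Suclg2 was 1.4 and 1.26 in starved and 2.42 and 2.6 in fed KO-labelled cells, and 0.98 and 0.94 in starved and 1.74 and 1.69 in fed WT cells. The ATP-type subunit thus made up less of the pair in starved than in fed libraries under each label, and Suclg2 rose by 0.68 ± 0.05 in KO-labelled and 0.88 ± 0.047 in WT cells. Within the NAD-dependent isocitrate dehydrogenase, Idh3b over Idh3g was 1.48 and 1.58 in starved and 0.922 and 0.941 in fed KO-labelled cells, and 1.06 and 1.05 in starved and 0.623 and 0.639 in fed WT cells. Idh3g, an X-linked gene, was lower under the KO label (-0.78 ± 0.044 when starved and -0.85 ± 0.043 when fed). Idh3a over Idh3b was 0.49 and 0.502 in starved and 0.628 and 0.636 in fed KO-labelled cells, and 0.584 and 0.592 in starved and 0.543 and 0.568 in fed WT cells. This ratio was lower after starvation under the KO label. In WT it was slightly higher, where the fitted rises were 0.90 ± 0.041 for Idh3a and 0.82 ± 0.04 for Idh3b. Differences of ratios between groups were not tested. Mdh2 over Mdh1, the cytosolic malate dehydrogenase, was 1.87 and 1.83 in starved and 2.46 and 2.38 in fed KO-labelled cells, and 4.12 and 4.05 in starved and 2.29 and 2.25 in fed WT cells, in opposite directions under the 2 labels.

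**Figure D5:**
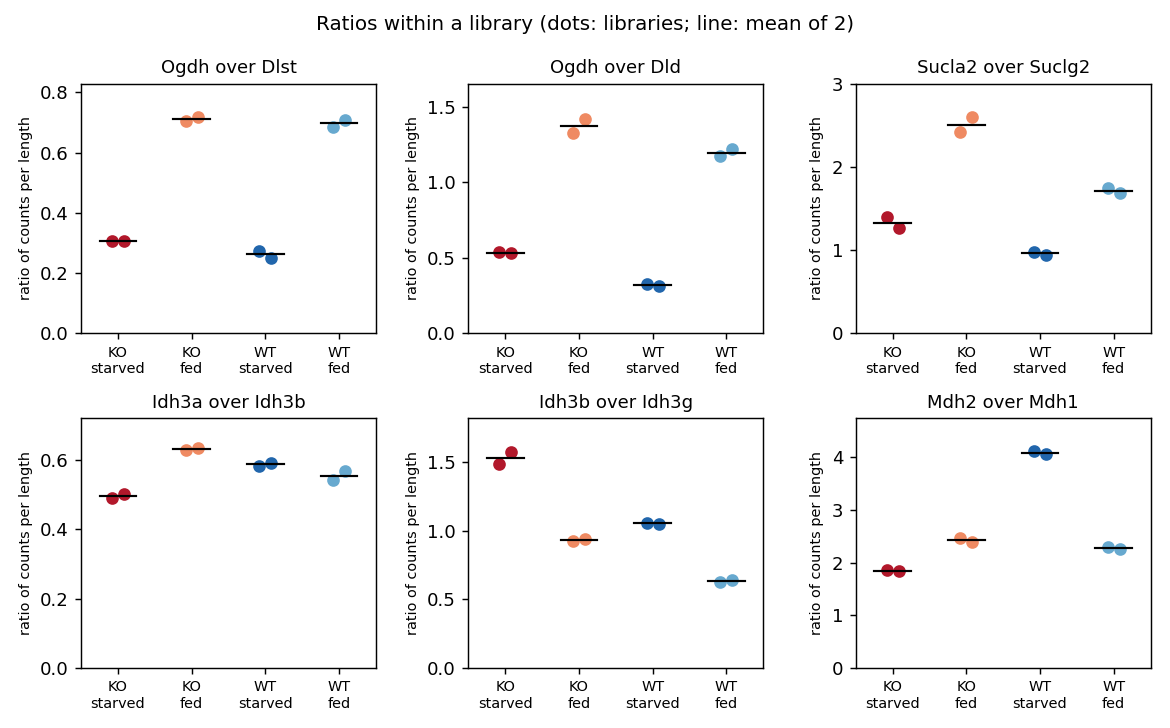
Ratios of counts per transcript length between partner genes within each library (vertical axes from 0), for starved and fed KO-labelled and starved and fed WT cells; dots are libraries and lines the mean of 2. Ogdh over Dlst and over Dld and Sucla2 over Suclg2 are lower in all starved libraries than in the fed libraries of the same label, and Mdh2 over Mdh1 moves in opposite directions under the 2 labels.

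A further 8 genes of the cycle were Idh3g, Dlst, Dld, Suclg2 and the 4 succinate dehydrogenase subunits Sdha to Sdhd. Starvation raised 5 and lowered 2 of them in KO-labelled cells and raised 3 and lowered 4 in WT cells, with medians of 0.33 and -0.03, against -0.02 and -0.17 over all genes. With library totals these counts were 4 and 4 in KO-labelled cells and 3 and 5 in WT cells. Sdhb, the iron-sulfur subunit, rose in KO-labelled cells (0.55 ± 0.044) and fell in WT cells (-0.15 ± 0.047), whereas Sdhc, a membrane anchor, fell in both (-0.42 ± 0.041 and -0.44 ± 0.045). Sdhd, the other anchor, fell in both (-0.22 ± 0.039 and -0.13 ± 0.04), and Sdha, the flavoprotein, fell in WT (-0.16 ± 0.032) and was -0.03 ± 0.031 in KO-labelled cells (adjusted p = 0.41, a called fall of -0.28 with library totals). Idh3g rose in KO-labelled cells by 0.15 ± 0.044, a direction that turned to -0.11 with library totals, and stood at 0.08 ± 0.043 in WT (adjusted p = 0.107, a called fall of -0.38 with library totals).

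Under the KO label, 4 of these 8 were higher and 4 lower in starved cells, and 3 were higher and 4 lower in fed cells. Of all tested genes, 41.9% were called higher and 37.7% lower when starved, and 34.5% higher and 39.8% lower when fed. Suclg2 was lower under the KO label (-1.26 ± 0.047 when starved and -1.06 ± 0.049 when fed), and Sdhc was higher by 0.61 ± 0.044 and 0.60 ± 0.041. With library totals Sdhd, at -0.30 ± 0.04 when starved, turned to 0.014. Sdhb was higher when starved (0.42 ± 0.046) and lower when fed (-0.27 ± 0.045).

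Carbon reaches the cycle from pyruvate through the pyruvate carriers and pyruvate dehydrogenase, which Pdk kinases switch off and Pdp phosphatases switch on. In these lists, as above, the background for starvation was 39.4% of tested genes called higher and 40.3% lower in KO-labelled cells, and 36.7% higher and 44.8% lower in WT cells. Of 12 such genes, starvation raised 5 and lowered 4 in KO-labelled cells and raised 4 and lowered 5 in WT cells, with medians of 0.04 and -0.08. Pdhb, a subunit of the dehydrogenase, rose by 1.04 in KO-labelled and 1.15 in WT cells. Pdk4 was at 1.48 ± 0.0924 CPM in starved and 2.72 ± 0.0378 CPM in fed KO-labelled cells and at 18.9 ± 0.358 CPM in starved and 74.3 ± 0.00989 CPM in fed WT cells, so it fell under both labels and was lower under the KO label in both states. Pdk1 fell in KO-labelled cells (-1.66 ± 0.064) and was -0.17 ± 0.08 in WT cells (adjusted p = 0.0567, a called fall of -0.63 with library totals). Pdk2 and Pdp1 fell under both labels (-0.74 and -1.01 in KO-labelled cells, -2.59 and -2.54 in WT cells). Pdk3 was higher under the KO label, by 1.19 when starved and 0.76 when fed, and Pdp2 was lower (-1.14 and -0.62).

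Of 6 genes of enzymes that exchange carbon between the cycle and pyruvate, phosphoenolpyruvate or amino acids, 5 rose and 1 fell under each label, with medians of 0.80 in KO-labelled and 0.88 in WT cells. Some of these reactions add carbon to the cycle and others withdraw it. Pck2, the mitochondrial enzyme that makes phosphoenolpyruvate from oxaloacetate, rose by 1.83 and 1.53, and Me3, a mitochondrial malic enzyme, by 1.37 and 1.15 in KO-labelled and WT cells. Pcx, pyruvate carboxylase, which makes oxaloacetate and so refills the cycle, was the gene that fell in both (-0.60 in KO-labelled and -1.42 in WT cells) and was higher under the KO label by 1.43 when starved and 0.60 when fed.

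Among 6 genes of cytosolic counterparts and citrate use, starvation raised 3 and lowered 2 under each label, with medians of 0.25 in KO-labelled and 0.02 in WT cells. Got1, the cytosolic aspartate aminotransferase, was at 270 ± 0.905 CPM in starved and 24.7 ± 0.211 CPM in fed KO-labelled cells and at 276 ± 2.49 CPM in starved and 30.1 ± 0.784 CPM in fed WT cells. Idh1, the cytosolic NADP-dependent isocitrate dehydrogenase, fell in both (-1.76 ± 0.066 in KO-labelled and -2.12 ± 0.082 in WT cells). Aco1, which converts citrate to isocitrate in the cytosol, was lower under the KO label (-1.04 when starved and -0.79 when fed). Of 6 mitochondrial carriers, starvation raised 2 and lowered 4 in KO-labelled cells and lowered 5 in WT cells, where Slc25a22 stood at 0.12 ± 0.097 (adjusted p = 0.252, a called fall of -0.33 with library totals). All 6 were higher under the KO label in fed cells, a call that 34.5% of all tested genes received. Slc25a10, the dicarboxylate carrier, fell in both (-1.98 in KO-labelled and -2.97 in WT cells). So did the aspartate-glutamate carriers Slc25a12 (-2.52 and -0.53) and Slc25a13 (-0.95 and -1.42). Slc25a22, a glutamate carrier, was higher under the KO label by 1.55 when starved and 1.26 when fed. Of 4 succinate dehydrogenase assembly genes, starvation raised 3 and lowered 1 under the KO label and raised 1 and lowered 1 in WT, and Sdhaf1 was at 17.4 ± 0.402 CPM in starved and 7.29 ± 0.326 CPM in fed KO-labelled cells, against 3.81 ± 0.382 CPM in starved and 4.44 ± 0.386 CPM in fed WT cells. The assembly genes listed as Acn9 and 1110058L19Rik changed in opposite directions with starvation in KO-labelled cells, by 0.96 ± 0.24 and -1.18 ± 0.13. Both were low. Acn9 was at 2.11 and 2.85 CPM in starved and 1.54 and 0.994 CPM in fed KO-labelled libraries. 1110058L19Rik was at 3.57 and 4.31 CPM in starved and 8.56 and 9.44 CPM in fed ones. With library totals the counts of genes higher and lower were 3 and 7 in KO-labelled and 2 and 8 in WT cells for pyruvate entry, 5 and 1 and 4 and 1 for the carbon-exchanging enzymes, 3 and 3 and 2 and 4 for the cytosolic genes, 1 and 4 and 0 and 6 for carriers, and 3 and 1 and 0 and 3 for assembly.

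The 9 genes did not share 1 profile. Across the 8 libraries, which are only 4 groups of 2, log2(CPM + 1) of Idh3a, Idh3b and Mdh2 ran together (Pearson r of 0.958 to 0.963 for the 3 pairs), and Ogdh ran opposite to them (-0.986 with Idh3b, -0.959 with Idh3a and -0.936 with Mdh2). Idh2 ran opposite to Suclg1 (-0.961). The mean of the 9 centred profiles was -0.02 and -0.01 in starved and -0.09 and -0.09 in fed KO-labelled libraries, and 0.21 and 0.2 in starved and -0.1 and -0.1 in fed WT libraries. Among 9251 other genes with a mean of at least 10 CPM, those most like this mean over the 8 libraries were Tatdn2 (r = 0.9995), Arih1 (0.998), Tex10 (0.998), Kansl2 (0.997) and Tbc1d15 (0.997).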

How the data were processed

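RNA sequencing counts from 8 MEF libraries, 2 in each of 4 groups taken with their replicate numbers from the sample titles, were analysed. The authors deposited raw whole-number counts for RefSeq transcripts, replicates kept apart (31055 rows, 23366 symbols). Per the submitters' processing notes TopHat2 2.0.9, bedtools and mm9 were used, without stated roles. Strand and multi-read rules are not given here. A further 4 columns matched no label and were not used. Of the symbols, 4447 had several rows, and the row with the highest total stood for each.

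Counts were tested with edgeR 4.0.16 (R 4.3.3): TMM, filterByExpr (14418 genes), 1 coefficient per group over 8 libraries (4 residual degrees of freedom) and two-sided quasi-likelihood F tests with a Benjamini-Hochberg threshold 0.05. SEs were derived from each fold change and its F. Because edgeR shares information on variability across genes, p-values and intervals of the cycle enzymes used 20.1 total degrees of freedom. Their precision therefore rests largely on the spread of other genes, not on the 4 residual degrees of freedom alone. Levels are CPM on TMM-adjusted totals. The 5 comparisons were starvation under each label, KO-labelled against WT in each state, and the difference of the responses. The script was tested on simulated data in which, unlike here, most genes were unchanged, so that test does not probe the scaling. Alternatives were DESeq2 1.42.0, library totals, no filter, a 5 CPM filter, summed rows, only the groups compared, a replicate block and leaving out each library. Replicates differed by more than sampling noise (chi-square per degree of freedom 3.31 to 6.01), and their log2 levels correlated at 0.998 to 0.999. Neither value shows whether replicates are independent. Each library counted as 1 sample.

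Transcript lengths came from GENCODE M21 by RefSeq accession, and promoter sequences and chromosomes from RefSeq (GRCm38.p6), another build than mm9, so counts were not tied to coordinates. The members and lists were chosen with earlier results of these data known. All 9 members and 8 further cycle genes are named, and other pathway genes where they passed with an absolute log2 fold change of at least 1. All 42 other pathway genes described were in the table, 2 of them under older symbols. A further 2 genes are not reported here and enter no list's count.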

Additional observations from a re-analysis of the deposited data

Results flagged for a closer look

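The starvation response of KO-labelled cells differed from that of WT cells, by edgeR's test of the difference itself, for 28 genes among the 9 enzymes, the 8 further cycle genes and the pathway genes named for a change of at least 1 on the log2 scale. Mdh1 (0.99), Nop56 (-0.56) and Kdm3a (-1.43), named above for other reasons, passed the same test. Values are the log2 response of KO-labelled cells minus that of WT cells, all at an adjusted p under 0.05. Of all tested genes, 64.5% received that call. The pathway genes, however, were named for a large change in these same libraries. For some, such as Slc25a12 (-1.98), the difference of the responses is itself larger than 1 in size. The share of all tested genes is therefore no like-for-like background for them, and the count of 28 does not measure an excess. Groups of 2 libraries were not tested for a library that stands apart.

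Of the 9 enzymes these were Cs (-0.60), Idh3a (-0.39), Sucla2 (-0.27), Fh1 (-0.74) and Mdh2 (-0.24), of which Sucla2 (-0.074) and Mdh2 (-0.044) were not called with library totals. Fh1 was called lower under the KO label and higher in WT with TMM scaling, and lower under both labels with library totals. Cs was called lower under the KO label and higher in WT with library totals (-0.31 and 0.09). Of the further cycle genes they were Dld (-0.58), Dlst (-0.22), Sdha (0.14), Sdhb (0.69) and Suclg2 (-0.19), of which Dlst (-0.019) and Suclg2 (0.0056) were not called with library totals. Around pyruvate dehydrogenase they were Pdk1 (-1.49), Pdk2 (1.85), Pdk3 (0.42), Pdk4 (1.11), Pdp1 (1.53) and Pdp2 (-0.52), of which Pdp2 (-0.32) was not called with library totals. Among enzymes that exchange carbon with the cycle and the cytosolic enzymes they were Pck2 (0.31), Pcx (0.82), Aco1 (-0.25), Got1 (0.25) and Idh1 (0.35), of which Aco1 (-0.054) was not called with library totals. Among carriers they were Slc25a10 (0.99), Slc25a12 (-1.98), Slc25a13 (0.47) and Slc25a22 (0.29), and among assembly genes 1110058L19Rik (0.58), Acn9 (0.78) and Sdhaf1 (1.47).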

How the results depend on the processing

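Of 666 values of the 9 enzymes under the alternatives, 600 kept their direction and their side of the threshold. The cause of each change was not tested, beyond the constant shift that library totals bring by construction. The alternatives share most of their libraries and several moved values little, so the count of 600 does not measure independent support. For WT starvation the median shift over all genes was -2.4e-05 with the replicate block. It was 0.0015 to 0.0040 when a KO-labelled library was left out. With library totals the counts of the 9 genes became 5 lower in WT and 5 lower in KO-labelled starvation, 4 higher and 3 lower for KO-labelled against WT when starved, and 4 higher and 3 lower for the difference of the responses, and 3397 genes of all tested rose in WT. The share of calls that were higher was 37% with totals against 49.4% with TMM for KO starvation, and 28.2 against 45% for WT starvation. It was 67.4 against 52.6% for starved KO-labelled against WT and 67% against 52.9% for the difference of the responses. For fed KO-labelled against WT it was 55.1 against 46.4%, and with totals 5 of the 9 genes were called higher and 3 lower. Directions that turned with totals were Sucla2 (-0.42), Suclg1 (-0.28) and Fh1 (-0.23) in WT starvation, Idh3a (0.020) in fed KO-labelled against WT, Idh3b (0.079), Fh1 (0.30) and Mdh2 (0.11) in starved KO-labelled against WT, and Ogdh (0.18) in the difference of the responses. In WT starvation 1 gene was lower with summed rows, with only the groups compared and with DESeq2. In KO starvation 5 were lower with the 5 CPM filter and with DESeq2. For the difference of the responses Idh2 and Idh3b turned to -0.050 and -0.024 with the 5 CPM filter and to -0.079 and -0.053 with DESeq2.

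Leaving out 1 library gave 1 to 2 genes lower in WT starvation, 3 to 5 lower in KO starvation and 0 to 1 higher for the difference of the responses. In that difference the values ran from -0.13 to 0.043 for Idh2, from -0.12 to 0.078 for Idh3b and from -0.032 to 0.17 for Suclg1, each turned when a starved WT library was left out (the first only for Suclg1). Fh1 in starved KO-labelled against WT ran from -0.14 to 0.021, turned without the first starved KO-labelled library. A group left with 1 library was assumed to vary like the others. Replicates with the same number did not deviate together (correlations of deviations -0.04 to 0.03), so they share only a number. With the replicate number as a block the only call of the 9 genes that changed was Idh3a in fed KO-labelled against WT (-0.10, adjusted p = 0.0505). Counts of the 9 genes were at least 1582 per library, and other depths were not tried.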
